A study of Mus musculus with 21 samples.

Results

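The Z-disc anchors the thin filaments of neighbouring sarcomeres, and together with the costamere and the intercalated disc it carries force through the cardiomyocyte. Proteins at these sites bind titin, actin and the intermediate filaments, and several of them move between the Z-disc and the nucleus or are made in larger amounts when the heart wall is stretched, which is why Ankrd1 and the Xin proteins are widely used as markers of mechanical load. The genes described here are 10 genes of that machinery: Ankrd1, Csrp3, Fhl1 and Fhl2, which bind titin or Z-disc proteins and take part in stretch signalling, Xirp1, Xirp2 and Nrap, which bind actin where myofibrils meet the membrane, and Flnc, Synpo2l and Des, which hold the Z-disc lattice together. They were chosen by symbol from 22136 genes in the count table, all 10 were found, and all 10 were among the 12626 genes tested.

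RNA-seq of left ventricular tissue was compared between 6 groups of male wild-type (WT) C57BL/6J mice. Their age of 8 weeks in the methods of the study was that before acclimation and surgery, so the hearts came from older mice. Sham mice (n = 6) had sham surgery and vehicle, and TAC 8W mice (n = 3) had transverse aortic constriction (TAC), which loads the left ventricle with pressure, for 8 weeks with vehicle. TAC 8W + Sema 8W mice (n = 3) received semaglutide (Sema), an agonist of the glucagon-like peptide-1 receptor, by daily intraperitoneal injection over those 8 weeks, and TAC 8W + Sema 4W mice (n = 3) received it only over the last 4 weeks. Sham + Sema and Sham + Sema 4W mice (n = 3 each) had sham surgery and Sema, for 4 weeks in the latter, while the labels give no duration for the former. The labels state the daily dose in mg/kg and the methods of the study in µg/kg, so its unit is unsettled. Some count columns were matched to the 8-week and 4-week groups by elimination, since no source explains the words high and M in their names. The labels do not say which surgery was done when, nor that replicates of a group were housed or sequenced apart, so p-values measure the spread between these libraries.

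The 21 libraries held 8897837 to 17170139 counts (median 12933772) and formed 2 sets. The share of counts from mitochondrially encoded genes was 20.2 to 40.8% in the 12 libraries of shams 1 to 3, Sham + Sema, TAC 8W and TAC 8W + Sema 8W, and 43.8 to 54.9% in the 9 libraries of shams 4 to 6 and the 4-week Sema groups. The division follows the numbering of the shams and the 4-week labels, and no label calls it a batch. Because the TAC 8W libraries belong to the first set and those of TAC 8W + Sema 4W to the second, the set and the 4-week treatment cannot be told apart between them. Replicates 1 and 2 of TAC 8W + Sema 4W were closer to each other than any other pair within a group (chi-square per degree of freedom 6.93 against 17.3 for the next), although further apart than counting noise allows, while replicate 3 stood apart from them. The labels name cardiomyocytes, and the 12 cardiomyocyte markers, among them Myh6 and Tnnt2, were all detected in every group. The markers of fibroblasts (10 of 10), endothelial cells (8 of 8), macrophages (8 of 8) and smooth muscle cells or pericytes (8 of 8) were detected too. So were those of atrial cells (4 of 4) and red blood cells (5 of 5). Of 8 skeletal muscle markers 5 or 6 were detected in each group or sham set, with Mylpf at up to 46 counts in a library. Among them Myh4, a fast skeletal myosin, had 0 counts in all libraries and Myh1 at most 2.

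To show the sequence around the start sites of genes that moved together, the RefSeq windows from 250 bases before to 50 bases after each annotated start (GRCm38.p6) were searched on both strands for 4 motifs. These were the MCAT element bound by TEAD factors (CATTCC), the AP-1 site (TGANTCA), the CArG box bound by serum response factor and the site of MEF2. Windows were found for 9 of the 10 genes, 14 in all, and none was given for Xirp1. The windows printed are those of Ankrd1, Synpo2l and Xirp2, which rose after TAC, of Flnc, which rose less, and of Fhl2, which did not rise, with the matched letters in capitals.

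Ankrd1 promoter, chr19:36119795-36120094, minus strand: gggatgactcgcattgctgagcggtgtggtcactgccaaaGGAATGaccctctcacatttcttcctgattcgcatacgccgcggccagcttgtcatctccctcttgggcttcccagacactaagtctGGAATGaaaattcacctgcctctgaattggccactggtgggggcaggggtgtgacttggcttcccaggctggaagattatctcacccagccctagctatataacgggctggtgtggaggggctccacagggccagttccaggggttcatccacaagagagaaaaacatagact
Synpo2l promoter, chr14:20668305-20668604, minus strand: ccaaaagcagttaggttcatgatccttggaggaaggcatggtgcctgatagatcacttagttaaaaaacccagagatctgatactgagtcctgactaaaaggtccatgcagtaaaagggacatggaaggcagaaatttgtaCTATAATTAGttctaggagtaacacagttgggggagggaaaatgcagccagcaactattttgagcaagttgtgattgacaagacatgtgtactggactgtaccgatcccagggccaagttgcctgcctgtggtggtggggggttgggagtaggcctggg
Xirp2 promoter, chr2:67445752-67446051, plus strand: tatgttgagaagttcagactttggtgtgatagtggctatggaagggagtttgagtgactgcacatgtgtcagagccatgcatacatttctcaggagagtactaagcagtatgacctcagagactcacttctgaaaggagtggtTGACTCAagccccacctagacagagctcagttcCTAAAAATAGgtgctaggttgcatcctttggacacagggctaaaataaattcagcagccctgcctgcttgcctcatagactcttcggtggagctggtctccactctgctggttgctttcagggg
Flnc promoter, chr6:29433006-29433305, plus strand: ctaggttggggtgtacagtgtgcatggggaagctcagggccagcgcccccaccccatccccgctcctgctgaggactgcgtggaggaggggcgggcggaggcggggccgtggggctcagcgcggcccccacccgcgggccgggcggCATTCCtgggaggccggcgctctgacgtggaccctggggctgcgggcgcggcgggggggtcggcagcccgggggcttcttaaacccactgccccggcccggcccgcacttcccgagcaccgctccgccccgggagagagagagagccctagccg
Fhl2 promoter, chr1:43196712-43197011, minus strand: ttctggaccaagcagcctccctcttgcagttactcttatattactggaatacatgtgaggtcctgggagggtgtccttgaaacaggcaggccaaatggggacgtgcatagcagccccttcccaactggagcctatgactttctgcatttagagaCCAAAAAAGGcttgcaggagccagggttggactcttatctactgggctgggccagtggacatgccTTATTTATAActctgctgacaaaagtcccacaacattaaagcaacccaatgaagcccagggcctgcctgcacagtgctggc

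Ankrd1 held MCAT in 2 places on the opposite strand, starting at -210 and -123 from the annotated start. Flnc held it at -104 in the window printed, and at -1 in its other window, which overlaps the first and holds the same letters. Of all 32851 windows, 14.7% held MCAT, against 3 of the 14 windows here. The CArG box was in 3 windows, both of Fhl2 and 1 of the 2 of Fhl1, and in 1.63% of all windows. A MEF2 site was in 4 windows, those of Xirp2, 1 of Fhl2 and both of Synpo2l, against 3.19% of all windows. AP-1 occurred once, in Xirp2, and in 7.81% of all windows. None of these matches overlapped another motif, and the windows of Csrp3, Des and Nrap held none of the 4. A match is a description of the letters and not evidence of a bound site, and motifs were found in Fhl2, which did not rise, as in genes that rose.

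To examine how pressure load affected these genes, TAC 8W was compared with all 6 shams. In TAC 8W hearts 8 of the 10 genes rose and none fell (edgeR quasi-likelihood test, adjusted p under 0.05 over all 12626 genes), where 2.84% of all genes tested rose. The median log2 fold change of the 10 genes was 1.77, and that of all genes 0.05. Against the 6 shams together Synpo2l, Ankrd1, Xirp1 and Fhl1 rose most, whereas against shams 1 to 3, of the same library set, Xirp2 did (2.96, against 2.59 for Synpo2l). Csrp3 and Fhl2 did not pass the test. In bulk tissue, fewer cells of a type and less RNA per cell cannot be told apart. In the same comparison 4 of 10 fibroblast markers rose (Col1a1, Col1a2, Col3a1 and Mfap4), their summed level lying between 1470 and 3610 CPM (counts scaled to the library size) in TAC 8W and between 1620 and 2770 in the shams. None of the 12 cardiomyocyte markers passed the test, and their sum was 46400 to 98700 CPM in TAC 8W and 84400 to 109000 in the shams. The part of these cell types in the results was not tested.

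**Figure D1:**
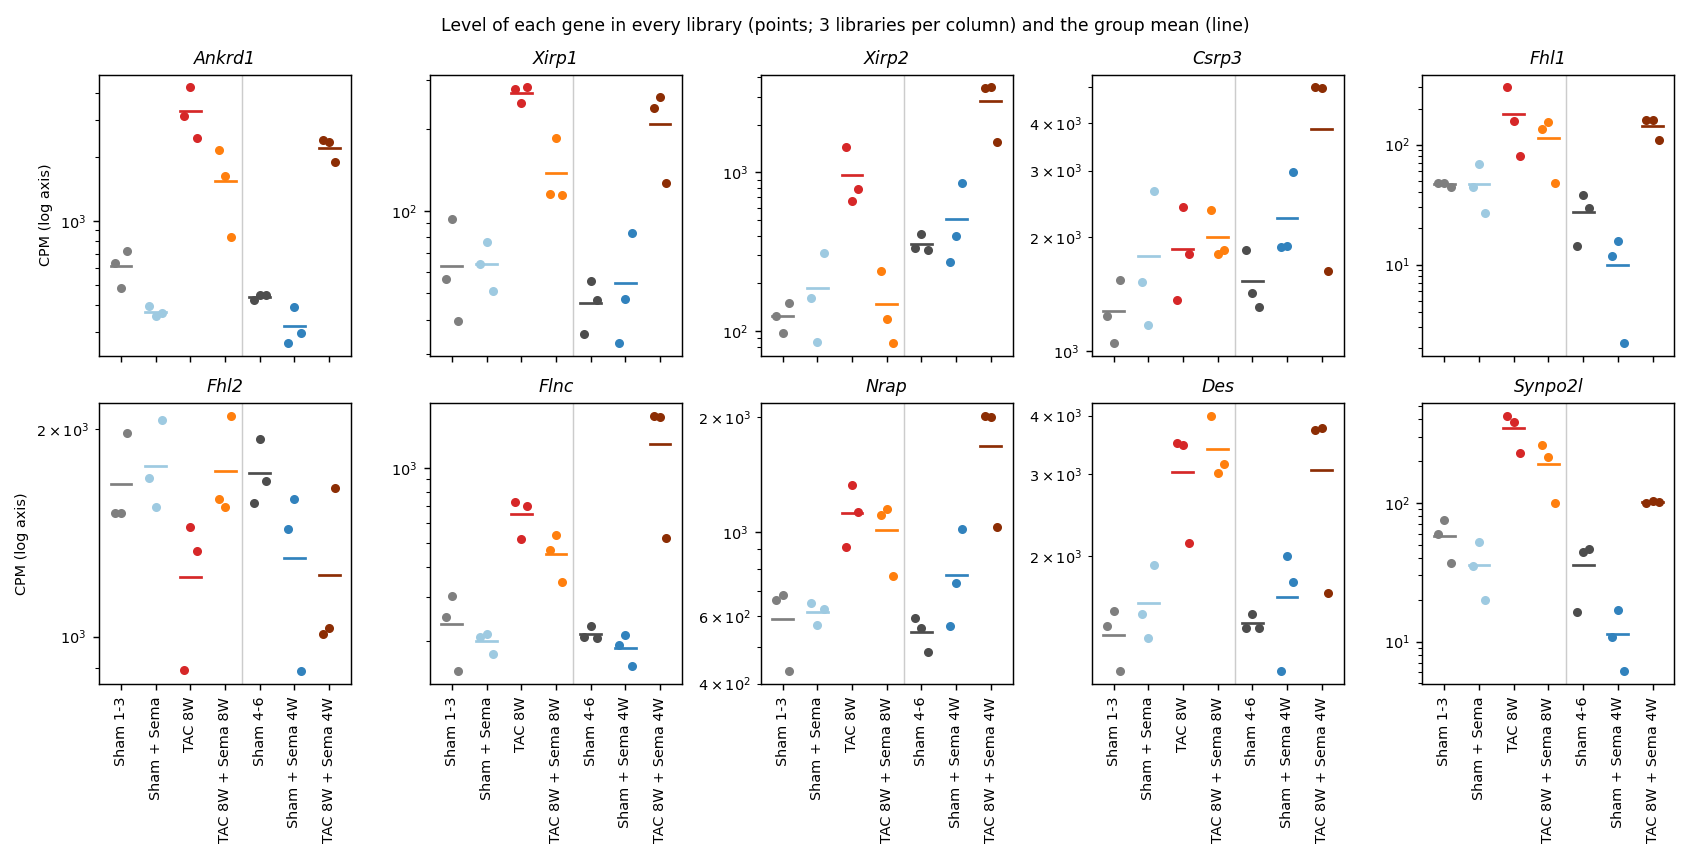
Levels of the 10 genes in each of the 21 libraries, in CPM on a log axis, with the 7 columns grouped by library set (left of the grey line the first set, right of it the second) and a line at the mean of each column. Ankrd1 lay at 421 to 721 CPM in the shams and at 2460 to 4260 CPM in TAC 8W, while Fhl2 was at 1510 to 1970 CPM in the shams and 894 to 1440 CPM in TAC 8W.

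Ankrd1 (ENSMUSG00000024803, chr19:36111961-36120099 in mm10, as are all gene positions here) encodes the cardiac ankyrin repeat protein, which binds titin in the I-band and also acts in the nucleus. It stood at 631, 481 and 721 CPM in shams 1 to 3 and at 421, 446 and 447 in shams 4 to 6, against 3110, 4260 and 2460 CPM in TAC 8W. The groups did not overlap, and Ankrd1 rose by 2.64 ± 0.26 on the log2 scale (SE, adjusted p = 3.52e-06). The rise kept its call under all 14 alternative settings with an adjusted p and without any single library. After 8 weeks of Sema its levels were 2150, 1620 and 837 CPM, below all TAC 8W libraries and above all shams. With Sema over the last 4 weeks they were 2400, 2340 and 1890 CPM, again below the lowest TAC 8W library. In sham hearts with Sema, Ankrd1 was at 396, 357 and 365 CPM, and at 265, 391 and 296 CPM in Sham + Sema 4W, all below the lowest sham at 421. Neither sham difference passed in edgeR (log2 fold change -0.49, adjusted p = 0.591, and -0.73, adjusted p = 0.0747). The difference in Sham + Sema 4W passed in 5 of 14 alternative settings, among them DESeq2 (-0.72, adjusted p = 0.0354) and shams 1 to 3 alone (-0.95, adjusted p = 0.0221), and without sham replicate 4 (-0.78, adjusted p = 0.0482).

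Fhl1 and Fhl2 encode LIM-only proteins that bind the spring region of titin. Fhl1 (ENSMUSG00000023092, chrX:56731787-56793346) was at 48.1, 48.2 and 44.7 CPM in shams 1 to 3, 14.3, 38 and 29.4 CPM in shams 4 to 6, and 301, 159 and 81 CPM in TAC 8W. It rose by 2.28 ± 0.46 (log2, adjusted p = 0.00509) with no overlap, but the replicates of TAC 8W differed widely. Without TAC 8W replicate 1 the rise was 1.66 and did not pass (adjusted p = 0.13). Fhl1 stood at 135, 156 and 47.9 CPM in TAC 8W + Sema 8W, whose lowest library lay within the sham range, and at 160, 161 and 110 CPM in TAC 8W + Sema 4W. Its levels were lowest in Sham + Sema 4W, at 11.9, 15.8 and 2.22 CPM, the last resting on 12 counts.

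Fhl2 (ENSMUSG00000008136, chr1:43123074-43196984), which also anchors metabolic enzymes to titin, went the other way. It stood at 1510, 1510 and 1970 CPM in shams 1 to 3, 1560, 1930 and 1680 CPM in shams 4 to 6, and 894, 1440 and 1330 CPM in TAC 8W. Although the TAC 8W libraries lay below all shams, the difference did not pass the test (log2 fold change -0.47 ± 0.24, adjusted p = 0.303). Fhl2 levels in TAC 8W + Sema 8W, at 1580, 1540 and 2090 CPM, lay above every TAC 8W library, without passing either (0.51 ± 0.27, adjusted p = 0.324). Replicates 1 and 2 of TAC 8W + Sema 4W were at 1010 and 1030 CPM and replicate 3 at 1640.

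Csrp3 (ENSMUSG00000030470, chr7:48830398-48848033) encodes muscle LIM protein, a partner of telethonin at the Z-disc that is needed for the response to stretch. It was at 1240, 1050 and 1540 CPM in shams 1 to 3, 1850, 1420 and 1310 CPM in shams 4 to 6, and 1360, 2410 and 1810 CPM in TAC 8W. The groups overlapped and the difference did not pass (log2 fold change 0.41 ± 0.32, adjusted p = 0.538). Csrp3 reached in TAC 8W + Sema 4W 4980 and 4960 CPM in replicates 1 and 2 and 1630 CPM in replicate 3. It was higher than in Sham there (1.46 ± 0.31, adjusted p = 0.00954), but not without replicate 1 (1.23, adjusted p = 0.0991) or replicate 2 (1.24, adjusted p = 0.0976).

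Xirp1 and Xirp2 encode the Xin repeat proteins, which bind actin at the intercalated disc. Xirp1 (ENSMUSG00000079243, chr9:120013755-120023598) was at 56.2, 93.1 and 39.7 CPM in shams 1 to 3, 35.6, 55.3 and 47.1 CPM in shams 4 to 6, and 280, 247 and 283 CPM in TAC 8W. Its rise of 2.31 ± 0.30 (log2, adjusted p = 8.17e-05) was the most even of the 10 across TAC 8W libraries, and it held under all 14 settings and without any single library. TAC 8W + Sema 8W libraries stood at 115, 184 and 114 CPM, between the shams and TAC 8W with no overlap with either. Xirp1 was at 238, 260 and 127 CPM in TAC 8W + Sema 4W.

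Xirp2 (ENSMUSG00000027022, chr2:67446002-67526614) differed more between sham sets than any other gene of the 10. It stood at 125, 97.6 and 150 CPM in shams 1 to 3 but at 335, 408 and 325 CPM in shams 4 to 6. TAC 8W libraries were at 1450, 659 and 784 CPM, above both sets, and Xirp2 rose by 2.01 ± 0.48 (log2, adjusted p = 0.0158). The rise was 2.96 against shams 1 to 3 alone (adjusted p = 0.00383) and 1.44 against shams 4 to 6 alone (adjusted p = 0.0615). Without TAC 8W replicate 1 it was 1.56 and did not pass (adjusted p = 0.213). With each library's trend on GC content and length removed it was 1.64 and did not pass either (adjusted p = 0.0595). After Sema over 8 weeks Xirp2 was at 241, 119 and 84.3 CPM, of which the last lay below the lowest sham (97.6) and the first above all of shams 1 to 3, while TAC 8W + Sema 4W libraries had the highest levels of any group, at 3420, 3440 and 1550 CPM.

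Nrap (ENSMUSG00000049134, chr19:56320035-56390037) encodes an anchoring protein of new myofibrils at the intercalated disc. It was at 663, 682 and 431 CPM in shams 1 to 3, 593, 561 and 483 CPM in shams 4 to 6, and 913, 1330 and 1130 CPM in TAC 8W. The groups did not overlap and Nrap rose by 0.98 ± 0.24 (log2, adjusted p = 0.018), the smallest rise of the 8. The call was lost without any 1 of the TAC 8W libraries (adjusted p = 0.0551, 0.0895 and 0.0591 without replicates 1, 2 and 3). It was also lost with the trend on GC content and length removed (0.79, adjusted p = 0.113). Nrap shares 4.87% of its exonic bases with Habp2 on the opposite strand, and Xirp2 and Des share 1.4% and 5.86% with predicted genes. The strandedness of the counting was not stated, so such reads cannot be told apart. After TAC with Sema, Nrap was at 1110, 1150 and 767 CPM (8 weeks) and 2020, 2000 and 1030 CPM (4 weeks), all above the highest sham.

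Flnc (ENSMUSG00000068699, chr6:29433256-29461883) encodes filamin C, which crosslinks actin at the Z-disc and costamere. It stood at 251, 303 and 151 CPM in shams 1 to 3, 207, 229 and 206 CPM in shams 4 to 6, and 730, 519 and 705 CPM in TAC 8W, with no overlap. Flnc rose by 1.54 ± 0.27 (log2, adjusted p = 0.00177), a call kept under all 14 settings and without any single library. Levels were 468, 538 and 346 CPM in TAC 8W + Sema 8W and 1630, 1610 and 520 CPM in TAC 8W + Sema 4W, where replicate 3 was again far below the others.

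Synpo2l (ENSMUSG00000039376, chr14:20658946-20668354) encodes a heart-enriched Z-disc protein that binds actinin. It was at 59.3, 75.8 and 37 CPM in shams 1 to 3, 16.3, 44.5 and 46.4 CPM in shams 4 to 6, and 426, 380 and 228 CPM in TAC 8W. Its rise of 2.89 ± 0.38 (log2, adjusted p = 9.02e-05) was the largest of the 10 against the pooled shams, though not against shams 1 to 3 alone, and the call held under all 14 settings and without any single library. Synpo2l was at 260, 215 and 99.6 CPM in TAC 8W + Sema 8W and at 100, 104 and 102 CPM in TAC 8W + Sema 4W, both above all shams. In Sham + Sema 4W it was at 10.8, 16.9 and 6.12 CPM, of which only replicate 2 lay within the sham range.

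Des (ENSMUSG00000026208, chr1:75360329-75368579) encodes desmin, the intermediate filament that links Z-discs sideways. It was at 1410, 1520 and 1130 CPM in shams 1 to 3, 1400, 1500 and 1400 CPM in shams 4 to 6, and 3500, 3450 and 2130 CPM in TAC 8W, with no overlap. Des rose by 1.12 ± 0.25 (log2, adjusted p = 0.0114), but not without TAC 8W replicate 1 (0.97, adjusted p = 0.138) or replicate 2 (1.01, adjusted p = 0.0525). Unlike Ankrd1, it was as high after Sema over 8 weeks as in TAC 8W, at 4000, 3010 and 3150 CPM, and TAC 8W + Sema 4W libraries stood at 3730, 3770 and 1660 CPM.

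Levels between genes were compared per kilobase of exon (RPKM, the CPM divided by the length of all exons). In the shams the order was Fhl2 at 893 ± 111 RPKM (SD, n = 6), Csrp3 at 524 ± 103, Des at 371 ± 37.5, Ankrd1 at 182 ± 42.4 and Nrap at 103 ± 17.9. Below these came Flnc at 23.9 ± 5.4 RPKM, Xirp2 at 20 ± 10.9, Synpo2l at 10.1 ± 4.35, Fhl1 at 10 ± 3.58 and Xirp1 at 9.33 ± 3.53, in which neighbours lay within their spread of each other. Csrp3 and Des also overlapped, at 393 to 691 and 300 to 404 RPKM. In TAC 8W Ankrd1 led with 1140 ± 318 RPKM (SD, n = 3), followed by Des at 806 ± 207, Csrp3 at 696 ± 197 and Fhl2 at 643 ± 152, which overlapped each other. Ankrd1 thus moved from the fourth place to the first.

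To investigate the effect of Sema given from the start, TAC 8W + Sema 8W was compared with TAC 8W. Xirp2 and Ankrd1 fell, 2 of the 10 genes, where 3.71% of all genes tested fell, and none rose. The median log2 fold change of the 10 genes was -0.60, against -0.12 for all genes. Xirp2 fell by 2.71 ± 0.61 on the log2 scale (adjusted p = 0.0201), and Ankrd1 fell by 1.09 ± 0.31 (adjusted p = 0.0493). The Xirp2 call was lost without TAC 8W replicate 1 (adjusted p = 0.125), TAC 8W + Sema 8W replicate 2 (0.0606) or replicate 3 (0.166). The Ankrd1 call was lost without any 1 of the 6 libraries (adjusted p = 0.0553 to 0.337). Xirp1, with no overlap between the groups, had a log2 fold change of -0.97 ± 0.36 that did not pass (adjusted p = 0.136), and Synpo2l had -0.85 ± 0.45 (adjusted p = 0.327). Des, Csrp3 and Nrap were nearest to no difference, at 0.16, 0.11 and -0.16. Of the cell type markers, fibroblast Col1a2 (-1.53, adjusted p = 0.0428, 1 of 10) and pericyte Rgs5 (-1.27, adjusted p = 0.0475, 1 of 8) fell in this comparison. Fibroblast sums were 1820 to 2150 CPM with Sema, within the 1470 to 3610 CPM of TAC 8W, and the part of these cells in the result was not tested.

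Xirp2 has long exons (11979 bases) of low GC content (42.2%, where the lower quartile of tested genes was 45.1%). Within a library, the deviation of genes from their mean correlated with GC content at rho between 0.203 and 0.564 in TAC 8W + Sema 8W and between -0.172 and -0.078 in TAC 8W. With each library's trend on GC content and length removed, the fall of Xirp2 was -1.47 and did not pass (adjusted p = 0.262), while the fall of Ankrd1 still passed (-1.09, adjusted p = 0.0499). RLE or upper quartile scaling, no count filter, leaving out mitochondrially encoded genes and fitting only the groups compared each ended the Ankrd1 call, as did a replicate block and the first library set alone (adjusted p = 0.0594 to 0.168 over these 7). The call held in the other 5 of 12 alternatives.

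Against the shams, TAC 8W + Sema 8W hearts still had 7 of the 10 genes higher and none lower, where 3.03% of all genes tested were higher. These were Ankrd1 (1.55 ± 0.26, adjusted p = 0.00116), Xirp1, Fhl1, Flnc, Nrap, Des and Synpo2l (2.04 ± 0.37, adjusted p = 0.0022). Xirp2 did not pass, at -0.70 against all shams, 0.25 against shams 1 to 3 and -1.27 against shams 4 to 6. Leaving out replicate 2 of the treated group gave 3 genes and leaving out its replicate 1 gave 4, and shams 1 to 3 alone gave 3, where Ankrd1, Des and Synpo2l remained. Against Sham + Sema, 2 genes were higher, Ankrd1 (2.04 ± 0.32, adjusted p = 0.0088) and Synpo2l (2.42 ± 0.47, adjusted p = 0.0244), where 0.38% of all genes were. That count was 0 without Sham + Sema replicate 3 or TAC 8W + Sema 8W replicate 1, and 1 without Sham + Sema replicate 1 or TAC 8W + Sema 8W replicate 2. The fibroblast marker Mfap4 was higher than in Sham (1.93, adjusted p = 0.00624, 1 of 10) and in Sham + Sema (2.99, adjusted p = 0.0244). The smooth muscle marker Myh11 was lower than in Sham (-1.50, adjusted p = 0.0045, 1 of 8), where 8.09% of all genes were lower. The part of these cells was not tested.

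**Figure D2:**
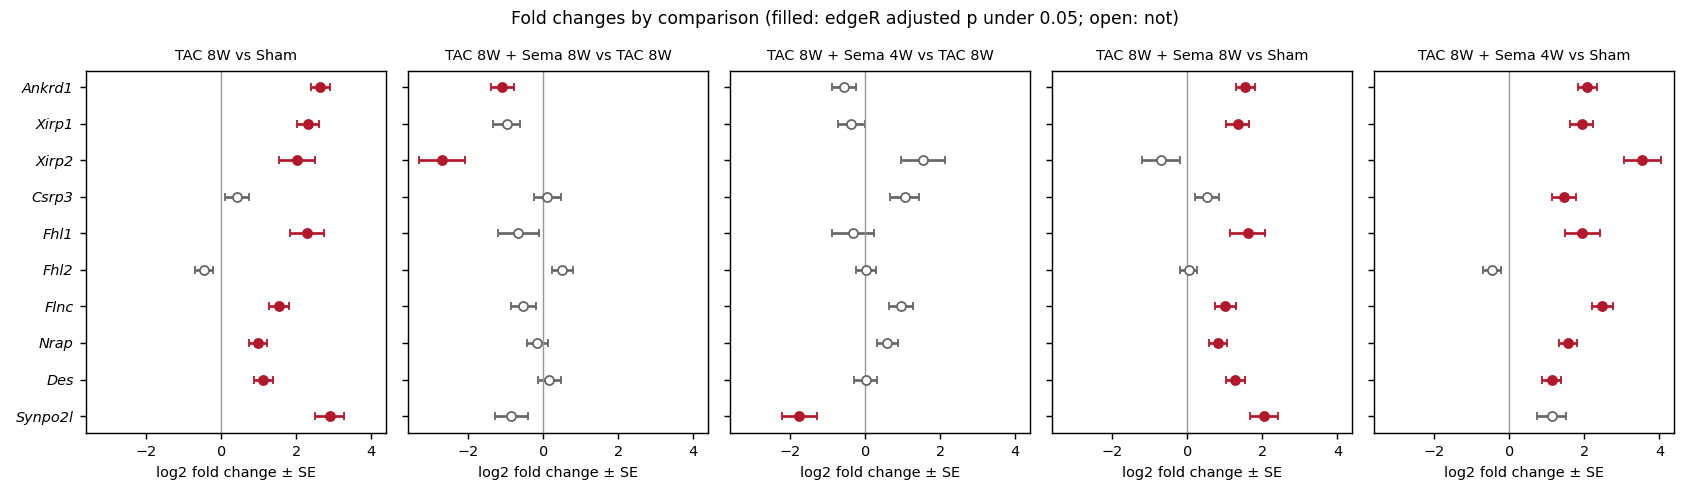
Log2 fold changes with standard errors of the 10 genes in 5 comparisons, filled where the edgeR adjusted p was under 0.05. TAC 8W vs Sham has 8 filled points, all to the right, TAC 8W + Sema 8W vs TAC 8W has 2 to the left, and TAC 8W + Sema 4W vs TAC 8W has 1 to the left (Synpo2l).

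For Sema over the last 4 weeks, 1 of the 10 genes fell against TAC 8W, Synpo2l, where 1.6% of all genes tested fell by edgeR, and none rose. DESeq2 also passed Csrp3 (1.10, adjusted p = 0.0424) and Flnc (1.00, adjusted p = 0.0492) as higher, and Flnc passed with the GC and length trend removed (1.23, adjusted p = 0.0405). Synpo2l fell by 1.76 ± 0.46 on the log2 scale (adjusted p = 0.044) with no overlap. The call was lost without any of the TAC 8W libraries or if replicate 1 or 2 of the 4-week group was left out (adjusted p = 0.0551 to 0.196), and it was kept without its replicate 3. Since the groups lie in different library sets, the comparison was also fitted with a term for the set, in which Synpo2l had -1.08 ± 0.61 (adjusted p = 0.954) and no gene of the 10 passed. The median log2 fold change of the 10 genes was 0.01, against -0.03 for all genes.

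Replicates 1 and 2 of the 4-week group lay above the mean of TAC 8W for several genes, and replicate 3 did so less or not at all. Xirp2 had a log2 fold change of 1.54 ± 0.59 (adjusted p = 0.142), Csrp3 1.05 ± 0.38 (0.121), Flnc 0.95 ± 0.33 (0.112) and Nrap 0.58 ± 0.28 (0.244), by edgeR. Without replicate 3 all of these passed, at 1.87 (adjusted p = 0.0365), 1.43 (0.0127), 1.35 (0.0084) and 0.85 (0.0416). With replicates 1 and 2 summed to 1 library, none of the 10 genes passed. With the term for the library set, Xirp2 was at 0.02, Csrp3 at 0.80, Flnc at 1.08 and Nrap at 0.70, and none of these passed. In the same comparison 6 of 10 fibroblast markers fell, where 1.6% of all genes did. Their sums were 686 to 1050 CPM in TAC 8W + Sema 4W, below the 1470 to 3610 CPM of TAC 8W. The macrophage marker Adgre1 (-3.22, adjusted p = 0.0276, 1 of 8) and the atrial marker Dkk3 (-5.71, adjusted p = 0.0283, 1 of 4) fell too, with list medians of -1.69 and -5.19. The part of these cells in the result was not tested.

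Against the shams, 8 of the 10 genes were higher in TAC 8W + Sema 4W and none lower, where 3.38% of all genes were higher. The largest differences were those of Xirp2 (3.54 ± 0.49, adjusted p = 0.000203), Flnc (2.48 ± 0.27, adjusted p = 4.26e-05) and Ankrd1 (2.08 ± 0.25, adjusted p = 7.43e-05). Synpo2l did not pass here (1.13 ± 0.38, adjusted p = 0.0868), although it was above all shams, nor did Fhl2 (-0.46, adjusted p = 0.277). In this comparison 3 of 10 fibroblast and 2 of 8 macrophage markers fell, where 1.33% of all genes fell. The pericyte Kcnj8 (-0.93, adjusted p = 0.0425, 1 of 8) and the atrial Dkk3 (-4.45, adjusted p = 0.0447, 1 of 4) fell too. Fibroblast sums, 686 to 1050 CPM, lay below the 1620 to 2770 CPM of the shams, and macrophage sums, 55 to 103 CPM, below their 188 to 297 CPM. The part of these cells was not tested. Without replicate 1 or 2 of TAC 8W + Sema 4W, or with both as 1 library, the count was 5, since Csrp3, Fhl1 and Des no longer passed. Within the second library set alone, 3 genes passed, Ankrd1, Xirp2 and Flnc. Against Sham + Sema 4W, 7 of the 10 genes were higher, where 1.77% of all genes were, and Csrp3, Fhl2 and Des did not pass. Fhl1 had the largest difference there (3.82 ± 0.63, adjusted p = 0.00317), followed by Synpo2l (3.16 ± 0.49, adjusted p = 0.00231). Their means in Sham + Sema 4W were 9.98 and 11.3 CPM, below the 37.1 and 46.5 CPM of Sham. The count was 4 without Sham + Sema 4W replicate 1, 5 without its replicate 2 or without TAC 8W + Sema 4W replicate 1 or 2, and 2 when the fit held just these 2 groups. Also lower than in Sham + Sema 4W were 2 of 10 fibroblast markers (Tcf21 and Gsn), the pericyte Kcnj8 and the endothelial Tie1 (1 of 8 each). Of all genes 0.744% were lower there, and the part of these cells was not tested. These comparisons with Sham and with TAC 8W share libraries, so they are not separate evidence.

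In sham hearts with Sema, none of the 10 genes passed against Sham, where 0.00792% of all genes did. At an unadjusted p under 0.05 edgeR gave 0 of the 10 and 1106 of all genes, and DESeq2 and limma-voom passed 0 of the 10 after adjustment. In Sham + Sema 4W, Fhl1 (-1.87 ± 0.54, adjusted p = 0.0476) and Synpo2l (-2.03 ± 0.44, adjusted p = 0.0468) fell, 2 of the 10, where 5.05% of all genes fell. Both calls were lost without Sham + Sema 4W replicate 1 (adjusted p = 0.0791 and 0.0725) or replicate 3 (0.275 for both), without any sham other than replicate 4, and against shams 4 to 6 alone, the shams of the same set (-1.42 and -1.65, adjusted p = 0.345 for both). The atrial Dkk3 (-5.80, 1 of 4), the fibroblast Pdgfra (-1.69, 1 of 10) and the cardiomyocyte Atp2a2 (-1.63, 1 of 12) fell in this comparison. Of 8 endothelial markers Tie1 (0.97) and Egfl7 (1.31) rose, where 2.23% of all genes rose. The medians of the last 2 lists went the other way, at 0.37 for cardiomyocyte and -0.63 for endothelial markers. Atrial sums were 2.15 to 7.23 CPM in Sham + Sema 4W and 17.9 to 661 CPM in shams 4 to 6, and the part of these cells was not tested. By edgeR with all shams the other 8 genes did not pass, although Ankrd1 (lower), Xirp2, Csrp3 and Nrap (higher) each passed in at least 1 alternative setting. Csrp3 there, at 1880, 1900 and 2980 CPM, lay above the highest sham at 1850 (0.69 ± 0.32, adjusted p = 0.123), and Xirp2 stood at 272, 397 and 862 CPM (1.09 ± 0.48, adjusted p = 0.112). An interaction tested whether the effect of Sema differed between TAC hearts (TAC 8W + Sema 8W) and sham hearts (Sham + Sema, no duration in the labels). In it no gene of the 10 and 0% of all genes passed. At an unadjusted p under 0.05 there were 2 of the 10, Xirp2 (-2.34 ± 0.76) and Xirp1 (-1.20 ± 0.47), and 1288 of all genes, and DESeq2 and limma-voom passed 0 of the 10. With shams 1 to 3 alone, the interaction of Xirp2 was -3.29 ± 0.70 and passed (adjusted p = 0.0393). With only the first library set in the fit it was -3.13 (adjusted p = 0.092).

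The shams were also compared with each other, a comparison added after the data were seen. None of the 10 genes differed between shams 4 to 6 and shams 1 to 3, where 3.29% of all genes did. At an unadjusted p under 0.05 there was 1 of the 10, Xirp2 (1.52 ± 0.49, adjusted p = 0.0997), whose 3 libraries per set did not overlap, and 2341 of all genes. With shams 1 to 3 alone 5 genes rose in TAC 8W, Ankrd1, Xirp1, Xirp2, Flnc and Synpo2l, since Fhl1 (adjusted p = 0.0735), Nrap (0.116) and Des (0.056) no longer passed. With shams 4 to 6 alone 7 rose, all but Xirp2 of the original 8. A fit of the first library set alone gave 7 as well, in which Xirp2 rose by 2.89 (adjusted p = 0.00343) and Nrap, at 0.88, did not pass (adjusted p = 0.102).

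**Figure D3:**
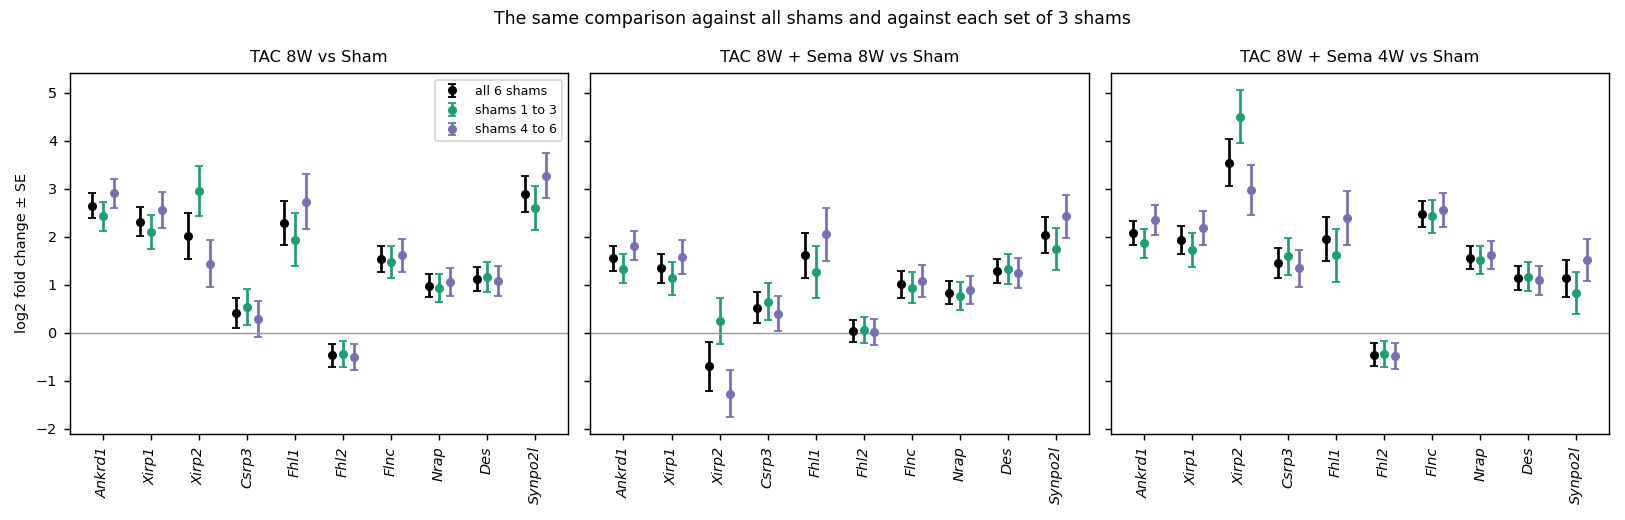
Log2 fold changes with standard errors against all 6 shams (black), shams 1 to 3 (green) and shams 4 to 6 (violet), for 3 TAC groups. The points of Xirp2 lie furthest apart, in TAC 8W vs Sham at 2.01, 2.96 and 1.44, and those of Fhl1 (2.28, 1.94 and 2.73) and Synpo2l (2.89, 2.59 and 3.27) are apart in the opposite order.

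Related genes were read from 4 lists. Of 38 other Z-disc genes, 3 rose and 1 fell in TAC 8W against Sham, with a median log2 fold change of 0.40, where 2.84% of all genes rose and 1.5% fell. Pdlim1, a PDZ-LIM partner of actinin (0.99, adjusted p = 0.00121), Ankrd23, a relative of Ankrd1 (2.08, 0.00589), and Lmod2, which lengthens thin filaments (0.78, 0.0183), rose. Tcap, the telethonin that caps titin, fell (-1.58, adjusted p = 0.00894). Of 22 costamere and integrin genes 1 rose, Itga5, the fibronectin receptor subunit (1.31, 0.0238), and of 12 intercalated disc genes none passed. Of 10 genes of intermediate filaments and the lamina 1 rose, Krt18, a simple epithelial keratin (3.61, 0.00199).

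Among the 38 other Z-disc genes, with 8-week Sema against TAC 8W, 3 fell and 1 rose, where 3.71% of all genes fell and 0.388% rose. Titin (Ttn, -1.67, adjusted p = 0.0258), the thin-filament protein Nebl (-2.35, 0.011) and the Z-disc linker Nexn (-2.51, 0.0338) fell, and Tcap rose (1.69, 0.0199). Of the costamere genes Dmd, which encodes dystrophin (-1.68, 0.0126), and Ptk2, the focal adhesion kinase (-0.88, 0.0413), fell. Gja1, the main ventricular gap junction protein (-2.34, 0.0443), and the intermediate filament gene Nes (-1.68, 0.0365) fell as the only genes of their lists. These list genes were not examined with a library left out or with the GC and length trend removed, which ended the Xirp2 call in this comparison. With Sema over the last 4 weeks the only gene of these 4 lists that passed was Ankrd2, another relative of Ankrd1 (5.41 ± 1.07, adjusted p = 0.0139). Of all genes 1.2% rose in that comparison. Its groups lie in different library sets, and Ankrd2 was not examined with the term for the set or with a library left out.

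**Figure D4:**
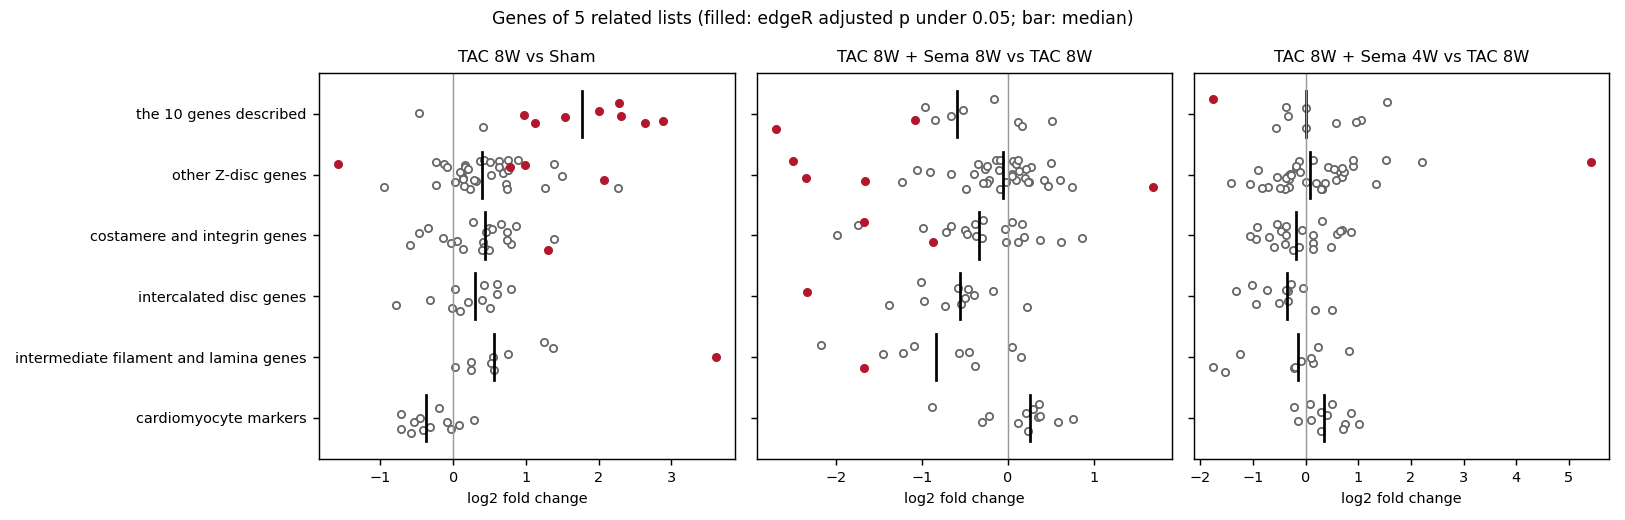
Log2 fold changes of the 10 genes, of 4 related lists and of 12 cardiomyocyte markers in 3 comparisons, filled where the edgeR adjusted p was under 0.05, with a bar at each median. In TAC 8W vs Sham the median of the 10 genes is 1.77, that of the other Z-disc genes 0.40 and that of the cardiomyocyte markers -0.37.

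Among the 21 libraries, which share groups, depth and set, the correlations between the 10 genes ranged widely. Of the 36 pairs without Fhl2, 35 had a positive Pearson correlation of log2 CPM, and all 9 pairs with Fhl2 had a negative one (-0.68 to -0.1). Csrp3 had an r of -0.01 with Synpo2l and 0.06 with Fhl1, which were -0.44 and -0.33 within groups, and Xirp2 had 0.18 with Synpo2l. Fhl1 and Synpo2l were closest (r = 0.92, n = 21), and they stayed so within groups (0.85). Ankrd1 and Xirp1 also correlated over all libraries (0.88) but not within groups (-0.01). The genes outside these lists with the most similar pattern, by correlation with the mean of the 10 standardised genes over 21 libraries, were Uck2 (r = 0.953), Rrp12 (0.951), 2010111I01Rik (0.942), Lman1l (0.921) and Gdf15 (0.918). Gdf15, a secreted stress hormone, was at 0.544 to 1.81 CPM in the shams and 51 to 106 CPM in TAC 8W. Uck2, a kinase of pyrimidine nucleosides, was at 14.9 to 21.3 CPM and 69.6 to 137 CPM.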

How the data were processed

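Counts of reads per gene in 21 libraries were used as the authors deposited them, raw and unnormalized. Per the submitters' processing notes and the study's methods, the authors used cutadapt 1.11 for trimming, hisat2 for alignment (mm10) and featureCounts 1.6.0 for counting. Annotation and strandedness: not given in the sources used here. Genes were named by GENCODE M21 (22041 of 22136 IDs). 0 columns were left unused.

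Genes kept by filterByExpr (minimum count 10, minimum total 15, 12626 genes) were scaled by TMM and tested with edgeR 4.0.16 (quasi-likelihood, 1 mean for each of 6 groups) in R 4.3.3, and p-values were two-sided and adjusted by the Benjamini-Hochberg method. The study's methods name limma, so limma-voom (limma 3.58.1), also at an unadjusted p under 0.1, and DESeq2 1.42.0 were alternatives. Level values (CPM) use TMM-scaled sizes of the tested genes. SE is the log2 fold change divided by the root of F. The common dispersion was 0.138, a coefficient of variation of 37.2%.

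Members, lists and comparisons were chosen with earlier results of these data known. Besides the 10 genes, the text names up to 4 genes per list with the smallest p past the threshold in TAC 8W vs Sham and in each comparison with TAC 8W, and the 5 genes most like the mean pattern. Marker genes and libraries named outside this rule were chosen after their values were seen. Proteins were not analysed here. The comparison of sham sets and 5 alternatives (each library set alone, replicates 1 and 2 of TAC 8W + Sema 4W as 1 library, a trend on GC content and length, replicate 3 of both 4-week groups left out) were added after seeing the data.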

Additional observations from a re-analysis of the deposited data

Results flagged for a closer look

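In the 6 shams, the level of 2 of the 10 genes in 1 library lay far from the others by Dixon's ratio (past its 95% critical value for 6 libraries). Xirp1 was at 93.1 CPM in sham replicate 2 (ratio 0.642), and Des at 1130 CPM in sham replicate 3 (ratio 0.693). Chance flags about 1 in 20 groups. Leaving out either library kept both genes above the threshold in TAC 8W vs Sham, where all 8 calls held.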

How the results depend on the processing

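Over 2320 values of single genes under an alternative, 2104 kept the side of the threshold, 150 lost and 66 gained the call. Direction was counted apart from this: 0 called values changed sign, while 95 uncalled ones did. Of 232 counts of genes passing, 159 stayed within 1.5 times the reported count. For 8-week Sema against TAC 8W the count of 2 was 1 with RLE or upper quartile factors, with no count filter, without the mitochondrially encoded genes, with only the groups compared, with only the first library set, and with the GC and length trend removed, and 5 with limma-voom at an unadjusted p under 0.1. For 4-week Sema against TAC 8W the count of 1 was 3 with DESeq2 (2 of them higher), 0 with limma-voom, with at least 10 counts in every library, with the set term or with replicates 1 and 2 as 1 library, 2 with the GC and length trend removed, and 6 with limma-voom at an unadjusted p under 0.1. In TAC 8W vs Sham the count of 8 was 5 with shams 1 to 3 alone or the set term, and 6 with the GC and length trend removed. For the next comparison, the settings meant are shams 1 to 3 alone and the set term. For 8-week Sema after TAC against Sham the count of 7 was 3 in those settings and 4 with only the first set. For 4-week Sema after TAC against Sham the count of 8 was 3 with only the second set and 5 with replicates 1 and 2 as 1 library. In Sham + Sema 4W vs Sham the count of 2 was 0 with limma-voom, shams 4 to 6 alone, the set term or only the second set, 4 with shams 1 to 3 alone, 5 with the GC and length trend removed, and 7 with limma-voom at an unadjusted p under 0.1. Against Sham + Sema the count of 2 was 4 with DESeq2, at least 10 counts in every library or only the first set, and 7 with limma-voom at an unadjusted p under 0.1. Against Sham + Sema 4W the count of 7 was 2 with only the groups compared and 4 with only the second set. In Sham + Sema vs Sham the count of 0 was 1, and in the interaction 3, with limma-voom at an unadjusted p under 0.1, and the interaction count was 1 with shams 1 to 3 alone or the set term. The share of all genes passing is not given for these alternatives or with libraries left out, so these counts describe stability and not the 10 genes in particular. By edgeR, 4572 of all 12626 genes already had an unadjusted p under 0.05 in Sham + Sema 4W vs Sham. The causes were not tested.

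Leaving out 1 library at a time, or replicate 3 of both 4-week Sema groups, gave 4 to 8 genes in TAC 8W vs Sham, 0 to 1 for 8-week Sema against TAC 8W, 0 to 5 for 4-week Sema against TAC 8W, 3 to 7 in TAC 8W + Sema 8W vs Sham, 5 to 9 in TAC 8W + Sema 4W vs Sham, 0 to 3 in Sham + Sema 4W vs Sham, 0 to 2 in TAC 8W + Sema 8W vs Sham + Sema, 4 to 9 in TAC 8W + Sema 4W vs Sham + Sema 4W, and 0 in Sham + Sema vs Sham and in the interaction.

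Nothing showed that replicate numbers pair samples: deviations of libraries with 1 number correlated at -0.0318 on average (14 of 45 over 0.1), and those with unlike numbers at 0.00889. With a replicate block the count was 6 in TAC 8W vs Sham, 1 for 8-week Sema against TAC 8W, 1 in TAC 8W + Sema 8W vs Sham and 4 in Sham + Sema 4W vs Sham. The numbers of shams 4 to 6 occur in no other group, so the block takes these shams out of the comparisons with Sham. Those counts therefore do not measure pairing alone.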

Other observations

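In the comparisons not described for the related lists, 9 of the 38 other Z-disc genes were higher and 3 lower in TAC 8W + Sema 8W against Sham, where 3.03% of all genes were higher and 8.09% lower. Of the remaining lists only Krt18 was higher there, and only Dmd and Gja1 were lower. In TAC 8W + Sema 4W against Sham 7 of the 38 were higher and none lower (3.38% and 1.33% of all genes), and Itga5, Dmd and Nes of the remaining lists were higher. Against Sham + Sema 4W, 6 of the 38 were higher (1.77% of all genes), as were Itga5 and Dmd. In TAC 8W + Sema 8W against Sham + Sema only Nebl passed, and it was lower (0.705% of all genes). In Sham + Sema 4W against Sham, 4 of the 38 and 3 of the 12 intercalated disc genes were lower (5.05% of all genes), with a median log2 fold change of -1.15 in the latter list. Of the 22 costamere and integrin genes 2 were lower and 1 was higher there (2.23% of all genes were higher). No gene of these lists passed in Sham + Sema against Sham or in the interaction.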
